A study of Mus musculus with 9 samples.

Results

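Histones carry methyl and acetyl groups that enzymes add and remove, and the genes for 5 families of these enzymes are described here: lysine demethylases (Kdm), lysine methyltransferases (Kmt, Setd, Ezh1, Ezh2 and Dot1l), arginine methyltransferases (Prmt), zinc-dependent deacetylases (Hdac) and the NAD-dependent sirtuins (Sirt). They were chosen by gene symbol from the probe sets annotated with a single gene, leaving out Kdm5c, Kdm5d and Kdm6a, which lie on the sex chromosomes. This gave 62 of the 18193 genes on the array, measured with 139 of its 45101 probe sets, and each gene was represented by its probe set with the highest mean over the 9 arrays. Of the 62 genes, 60 were bright enough to be tested. The other two, Kdm4d, a demethylase gene, and Prmt8, an arginine methyltransferase gene of the nervous system, lay between 3.96 and 4.48 on the log2 scale on all 9 arrays, below the 40th percentile of each array (5.28 to 5.34).

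Methylation of lysine 4 on histone H3 accompanies active promoters and enhancers, methylation of lysine 36 accompanies transcribed gene bodies, and methylation of lysines 9 and 27 on H3 and lysine 20 on H4 accompanies compacted or silenced chromatin. Acetylation is removed by deacetylases, mostly within corepressor complexes. Arginine methyltransferases also modify many proteins outside chromatin, among them splicing factors and ribosomal proteins, and several sirtuins work in mitochondria, so the families are wider than histones. MYC proteins are transcription factors that bind the E-box sequence CACGTG with their partner MAX, and MYC family genes are amplified in a part of small cell lung cancers, where several of these chromatin enzymes are recurrently altered.

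RNA came from cultured mouse preSC, preneoplastic neuroendocrine cells isolated from lungs of mice whose conditional Rb, p53 and p130 alleles were recombined by Adeno-Cre virus, on a mixed C57BL/6 and 129/Sv background. All groups share these deletions. The groups were untransduced preSC (3 arrays) and preSC transduced with a retrovirus that encodes L-Myc, C-Myc or N-Myc (2 arrays each), and per their labels the L-Myc cells had undergone transformation. The promoter in the vectors, the age of the mice and whether replicates are separate clones or cultures are not given in the sources used here, and the design text calls the replicates biological, so p-values measure the spread between these arrays, which may in part be technical. The labels give polyA RNA for preSC and L-Myc and total RNA for C-Myc and N-Myc. In C-Myc and N-Myc against preSC, the group and the labelled molecule therefore cannot be told apart.

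All 12 measured neuroendocrine markers were above the 40th percentile on all 9 arrays. Their levels moved with the groups. Their summed linear signal was 43480 to 49469 in preSC, 35600 to 37857 in L-Myc, 29753 to 34334 in C-Myc and 32764 to 33366 in N-Myc. Scg2, a secretory granule gene, was at 11.66 to 12.07 in preSC and 9.21 to 10.70 on the transduced arrays, whereas Nkx2-1, a lung lineage factor, was at 5.70 to 6.06 and 8.12 to 8.66. Of other cell types, 2 to 4 of 10 fibroblast, 2 of 7 endothelial, 2 to 3 of 8 leukocyte and 3 to 4 of 8 club, alveolar and ciliated cell markers were above the percentile, and Col1a1, Pecam1, Ptprc and Scgb1a1 were below it on every array.

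Some of these other markers were high on a part of the arrays. Sftpc, an alveolar surfactant gene, was at 10.68 in C-Myc 1, 10.59 and 11.10 in N-Myc 1 and 2 and 6.06 to 8.42 elsewhere. The summed signal of its list was 1929 in C-Myc 1, 1840 and 2497 in N-Myc and 350 to 695 elsewhere. Lyz2, a myeloid and alveolar gene, was at 12.31 in C-Myc 1 and 5.61 to 6.76 in preSC 3, L-Myc 2 and C-Myc 2. On the other arrays it was at 9.31 to 10.99. The summed leukocyte signal was 242 to 1288 in preSC, 296 to 2242 in L-Myc, 314 to 5309 in C-Myc and 1116 to 1247 in N-Myc. Dcn, a fibroblast gene, was at 9.32, 10.32 and 9.69 in preSC 3, L-Myc 2 and C-Myc 2 and 5.29 to 6.86 elsewhere. The summed fibroblast signal was 904 to 1547 on those 3 arrays and 321 to 483 elsewhere. The summed endothelial signal was 200 to 263 on all 9 arrays. The part of these markers in the results was not tested.

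The transduced MYC genes followed the labels only in part. Mycl, the L-Myc gene, stood at 11.79 and 12.74 in the L-Myc arrays and at 5.39 to 8.52 elsewhere on its second-brightest probe set. On its brightest it stood at 8.56 and 8.78 in L-Myc and 7.54 to 9.03 elsewhere. Myc, with 1 probe set, stood at 10.68 and 11.22 in the C-Myc arrays, at 11.40 and 11.96 in the N-Myc arrays and at 5.63 to 8.13 elsewhere. It separates both groups from the rest and not from each other. The brightest Mycn probe set stood at 6.37 to 6.89 in preSC and was higher in L-Myc (12.92 and 13.33) and C-Myc (13.54 and 13.08) than in N-Myc (11.64 and 11.07). The dimmest Mycn probe set stood at 8.46 and 9.05 in the N-Myc arrays and at 5.79 to 6.39 elsewhere. The group names are those of the labels. Every direction given for a transduced group is that of the arrays labelled so.

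The arrays did not group by label alone. Of 12976 genes tested, 1127 (8.69%) differed at least 2-fold between the L-Myc arrays and 1417 (10.9%) between the C-Myc arrays. In contrast, 17 (0.131%) did so between C-Myc 2 and L-Myc 2, and 98 and 103 (0.755% and 0.794%) between C-Myc 1 and the 2 N-Myc arrays. PreSC 1 and 2 differed at 4 genes (0.0308%) and N-Myc 1 and 2 at 5 (0.0385%), while preSC 3 differed from preSC 1 at 961 (7.41%) and from preSC 2 at 926 (7.14%). The preSC arrays also stood apart from the transduced ones in control probe sets: the 18S ribosomal RNA signal was 12.88 to 13.91 against 8.22 to 9.35. The 5' minus 3' difference of the spiked-in Dap transcript was -3.33 to -3.02 against -1.27 to -0.99, and that of Actb, the beta-actin gene, -0.85 to -0.62 against -0.31 to -0.20. Every difference from preSC below coincides with this separation, and its part in the results was not tested.

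As a whole, the enzyme genes changed about as often as other genes. Each change is the transduced mean minus the preSC mean in log2 units, with the standard error (SE) of a limma fit to all 9 arrays, and the words rose, fell and changed are kept for an adjusted p under 0.05 over all genes tested. In L-Myc against preSC, 3 of the 60 rose and 3 fell (10.0%), beside 13.5% of all genes called. In C-Myc, 6 rose and 7 fell (21.7%), beside 23.5%, and in N-Myc 8 rose and 10 fell (30.0%), beside 28.8%. The median difference of the 60 genes was 0.06, 0.02 and 0.02 in this order, beside -0.04, -0.05 and -0.03 for all genes. Prmt1 and Sirt6 rose in all 3 comparisons (all genes: 4.25%), and Kmt2c, Kmt2e and Setd5 fell in all 3 (all genes: 5.69%). With the replicate number of the titles as a block in the fit, Prmt1, Sirt6, Kmt2c and Kmt2e did not pass in L-Myc. Kmt2c then did not pass in C-Myc or N-Myc either. All 6 transduced arrays lay above all preSC arrays for 9 of the 60 genes (15%, beside 15% of all genes) and below them for 10 (16.7%, beside 19.1%). These comparisons share the preSC arrays. Scaling mattered for direction: with each array centred on the median of the genes tested, the median difference of all genes moved up by 0.14, 0.17 and 0.17, and the split of enzyme genes became 8 higher to 3 lower in L-Myc, 8 to 4 in C-Myc and 14 to 7 in N-Myc. The split of all genes turned to mostly higher in the same way, with counts in the closing section. This turn is therefore not particular to the enzyme genes, and every centred count below is to be read beside it. When preSC 1 and 2 were averaged into 1 array, and N-Myc 1 and 2 likewise, none of the 60 genes passed in any comparison with limma (12, 16 and 12 had an unadjusted p under 0.05 in the order L-Myc, C-Myc, N-Myc, and so did 19.7%, 26.2% and 20.9% of all genes), and of all genes 2, 2 and 0 passed. The calls below count those closely matching arrays as separate replicates and were lost when they were averaged. Averaging also left fewer residual degrees of freedom (3 instead of 5), and the parts of the matching arrays and of the smaller fit cannot be told apart.

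**Figure D1:**
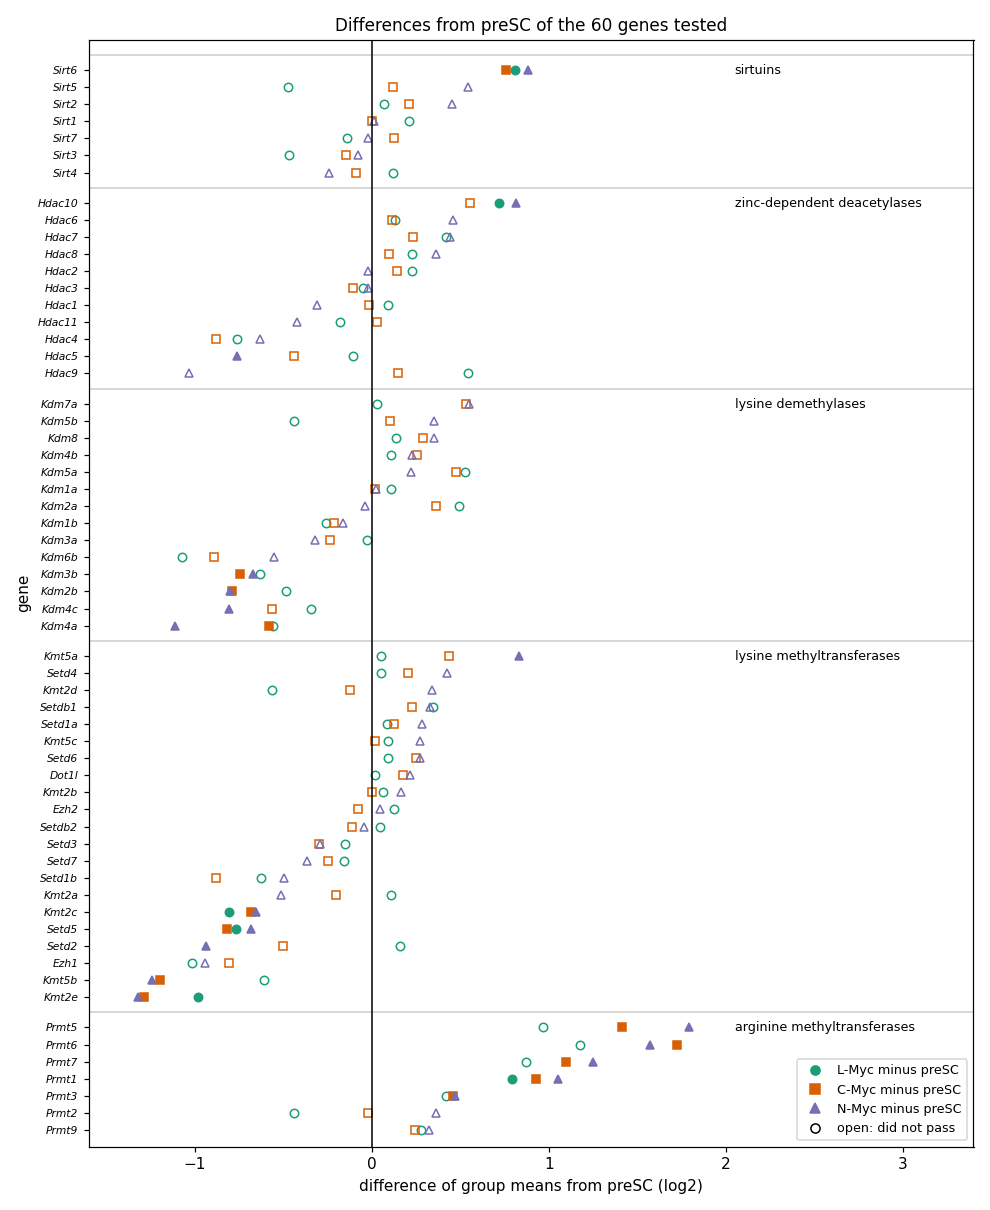
Difference of each transduced group mean from the preSC mean (log2, horizontal axis) for the 60 genes tested, one row per gene, grouped by family, with filled symbols where the adjusted p was under 0.05. Arginine methyltransferase genes lie mostly to the right of 0, with Prmt5 and Prmt6 farthest, and Kmt2e and Kmt5b lie farthest to the left among the filled symbols.

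The arginine methyltransferases were the family in which most members rose. Of 7 tested, 5 rose in C-Myc (all genes higher: 9.91%) and 5 in N-Myc (12.5%), 1 rose in L-Myc (5.44%), and none fell in any of the 3 groups. The family median was 0.79, 0.93 and 1.05 in the order L-Myc, C-Myc, N-Myc. These medians lay between 0.36 and 1.22 under all alternatives that change the scaling, the probe set, the filter or the fit. Over the same alternatives 0 to 4 members rose in L-Myc, 0 to 6 in C-Myc and 0 to 6 in N-Myc, and none fell.

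Prmt5 makes symmetric dimethylarginine on histones and on splicing proteins. Its value was 8.58, 8.22 and 8.43 in preSC 1 to 3, 9.36 and 9.40 in L-Myc 1 and 2, 10.29 and 9.35 in C-Myc 1 and 2 and 10.29 and 10.11 in N-Myc 1 and 2. All 6 transduced arrays lay above the 3 preSC arrays, and C-Myc 1 lay with the N-Myc arrays while C-Myc 2 lay with the L-Myc arrays. Prmt5 rose 2.66-fold in C-Myc (1.41, SE 0.26, adjusted p = 0.0115) and 3.46-fold in N-Myc (1.79, SE 0.26, adjusted p = 0.00522), and its difference in L-Myc was 0.97 (SE 0.26, adjusted p = 0.0517), which did not pass. Without C-Myc 1 the C-Myc difference was 0.94 (adjusted p = 0.0280), and without C-Myc 2 it was 1.88 (adjusted p = 0.00199). The N-Myc rise did not pass without N-Myc 1 (1.70, adjusted p = 0.0553).

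Prmt1 is the main source of asymmetric dimethylarginine in mammalian cells. Its value was 11.76, 11.58 and 11.39 in preSC 1 to 3, 12.28 and 12.45 in L-Myc 1 and 2, 12.67 and 12.33 in C-Myc 1 and 2 and 12.63 and 12.62 in N-Myc 1 and 2. The lowest transduced array, L-Myc 1, lay above the highest preSC array, preSC 1. Prmt1 rose in L-Myc (0.79, SE 0.17, adjusted p = 0.0235), C-Myc (0.93, SE 0.17, adjusted p = 0.00990) and N-Myc (1.05, SE 0.17, adjusted p = 0.00635). In L-Myc it passed in 1 of the 5 fits that left out an array of the comparison, in C-Myc in all 5 and in N-Myc in 3.

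Prmt7, which forms monomethylarginine, was at 8.03, 8.07 and 7.65 in preSC 1 to 3, 8.73 and 8.85 in L-Myc 1 and 2, 9.39 and 8.63 in C-Myc 1 and 2 and 9.24 and 9.08 in N-Myc 1 and 2. Its other tested probe set differed by 0.20 in L-Myc, 0.59 in C-Myc and 0.49 in N-Myc and passed only in C-Myc. On the brightest probe set, Prmt7 rose in C-Myc (1.10, SE 0.24, adjusted p = 0.0188) and N-Myc (1.25, SE 0.24, adjusted p = 0.0113), with all transduced arrays above all preSC arrays. Its difference in L-Myc was 0.87 (SE 0.24, adjusted p = 0.0542). In C-Myc it was not called without C-Myc 1 (0.71, adjusted p = 0.0725), and in N-Myc it was not called without N-Myc 1 (1.17, adjusted p = 0.0891) or without N-Myc 2 (1.33, adjusted p = 0.0691).

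Prmt6, which places asymmetric methyl groups on arginine 2 of H3, was at 6.26, 6.04 and 6.66 in preSC 1 to 3, 6.68 and 8.32 in L-Myc 1 and 2, 7.77 and 8.33 in C-Myc 1 and 2 and 7.84 and 7.94 in N-Myc 1 and 2. L-Myc 1 was barely above preSC 3, so the L-Myc arrays differed from each other by 1.64. Prmt6 rose in C-Myc (1.73, SE 0.45, adjusted p = 0.0320) and N-Myc (1.57, SE 0.45, adjusted p = 0.0373) and differed in L-Myc by 1.18 (SE 0.45, adjusted p = 0.128). The C-Myc rise did not pass without either C-Myc array (adjusted p = 0.0717 without C-Myc 1 and 0.115 without C-Myc 2), nor did the N-Myc rise without any of the 5 arrays (adjusted p up to 0.168). The second Prmt6 probe set differed by 0.36, 0.36 and 0.20 in the order L-Myc, C-Myc, N-Myc without passing.

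Prmt3, a cytosolic enzyme that methylates a protein of the small ribosomal subunit, had the smallest rise and the smallest SE: 9.70, 9.75 and 9.67 in preSC 1 to 3, 10.17 and 10.08 in L-Myc 1 and 2, 10.22 and 10.11 in C-Myc 1 and 2 and 10.17 and 10.19 in N-Myc 1 and 2. Its difference was 0.46 (SE 0.11, adjusted p = 0.0280) in C-Myc and 0.47 (SE 0.11, adjusted p = 0.0225) in N-Myc, and 0.42 (SE 0.11, adjusted p = 0.0526) in L-Myc. The C-Myc rise passed in 1 of the 5 fits that left out an array and the N-Myc rise in none (adjusted p up to 0.127). Its 4 other probe sets were also higher in all 3 groups, by 0.30 to 3.64. Adjusted over probe sets instead of genes, all 5 were called higher in L-Myc, the brightest included, and 4 of 5 in C-Myc and in N-Myc. Prmt9, which methylates a splicing factor, had all transduced arrays above preSC but did not pass on its brightest probe set (0.28, SE 0.16, adjusted p = 0.275 in L-Myc, 0.24 (SE 0.16, adjusted p = 0.294) in C-Myc and 0.32 (SE 0.16, adjusted p = 0.155) in N-Myc). Prmt2, a nuclear receptor coactivator, was at 9.73, 9.82 and 9.71 in preSC 1 to 3, 9.47 and 9.16 in L-Myc 1 and 2, 9.99 and 9.48 in C-Myc 1 and 2 and 10.08 and 10.16 in N-Myc 1 and 2. It lay below preSC in both L-Myc arrays and above in both N-Myc arrays, with no call in either (-0.44, SE 0.18, adjusted p = 0.148 and 0.36 (SE 0.18, adjusted p = 0.165)).

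**Figure D2:**
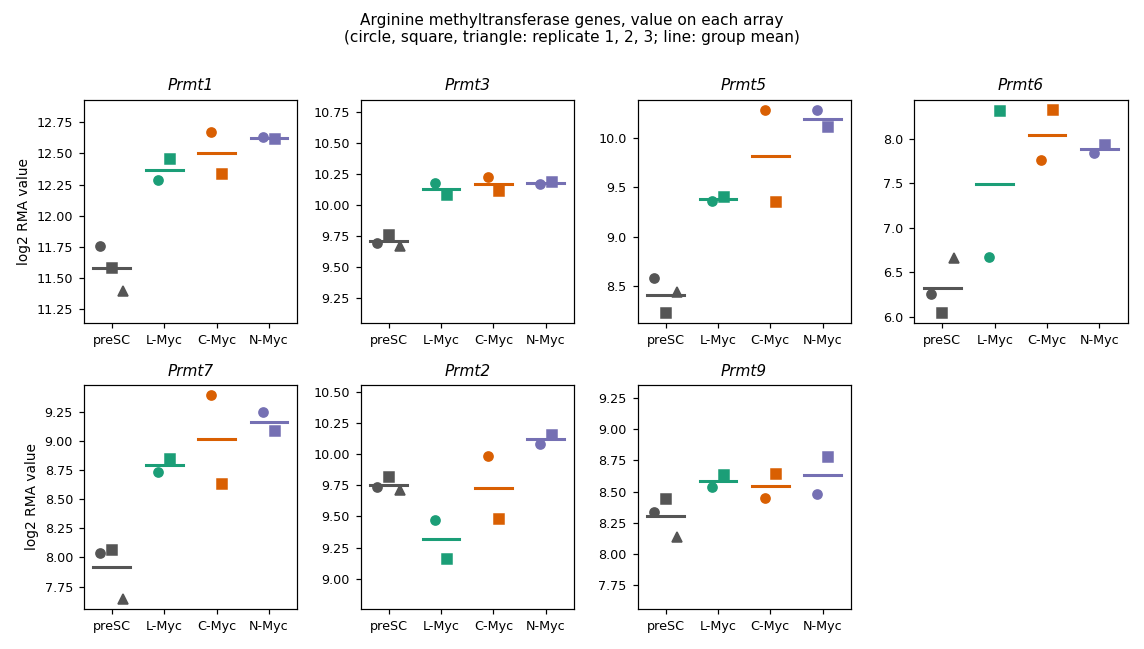
Deposited log2 value of the 7 tested arginine methyltransferase genes on each of the 9 arrays, by group, with symbols for the replicate number and a line at the group mean. For Prmt1, Prmt3, Prmt5, Prmt6, Prmt7 and Prmt9 the 6 transduced arrays lie above the 3 preSC arrays (15% of all genes tested do so). For Prmt2 they lie on both sides.

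Promoters of arginine methyltransferase genes are shown because most measured members of the family were higher together. The sequence searched was the E-box CACGTG, which reads the same on both strands, in the window from 250 bases before to 50 bases after the RefSeq gene start (RefSeq, GRCm38.p6). Of 32851 such windows of all genes, 2349 (7.15%) held it. Of the 62 enzyme genes 51 had a window in the table, and 5 (9.80%) held CACGTG, beside 8.09% of 27025 genes: Prmt1, Prmt3, Hdac5, Kdm4c and Sirt1. Of these, Prmt1 and Prmt3 rose, Hdac5 and Kdm4c fell in N-Myc, and Sirt1 did not pass in any comparison. Of 8 arginine methyltransferase genes 2 held the sequence (25.0%), and none of 18 lysine methyltransferase genes did. The windows of Prmt1 (chr7:44986371-44986670, minus strand), Prmt3 (chr7:49778108-49778407, plus strand) and Prmt5 (chr14:54517421-54517720, minus strand) follow 5' to 3', with CACGTG in capitals. It begins at base 70 of the window in Prmt1 and at base 238 in Prmt3, and Prmt5, which rose most in N-Myc, has no CACGTG in this window.
Prmt1: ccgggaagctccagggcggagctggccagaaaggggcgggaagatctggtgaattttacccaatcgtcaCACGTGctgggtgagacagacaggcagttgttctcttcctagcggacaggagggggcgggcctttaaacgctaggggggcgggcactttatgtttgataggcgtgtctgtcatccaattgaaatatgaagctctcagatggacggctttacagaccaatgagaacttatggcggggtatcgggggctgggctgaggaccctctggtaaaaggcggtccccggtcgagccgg
Prmt3: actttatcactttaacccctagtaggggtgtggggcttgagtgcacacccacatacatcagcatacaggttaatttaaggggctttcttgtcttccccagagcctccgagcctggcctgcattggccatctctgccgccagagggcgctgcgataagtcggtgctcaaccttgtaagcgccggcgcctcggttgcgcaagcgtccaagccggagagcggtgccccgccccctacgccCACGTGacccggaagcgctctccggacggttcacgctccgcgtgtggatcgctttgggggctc
Prmt5: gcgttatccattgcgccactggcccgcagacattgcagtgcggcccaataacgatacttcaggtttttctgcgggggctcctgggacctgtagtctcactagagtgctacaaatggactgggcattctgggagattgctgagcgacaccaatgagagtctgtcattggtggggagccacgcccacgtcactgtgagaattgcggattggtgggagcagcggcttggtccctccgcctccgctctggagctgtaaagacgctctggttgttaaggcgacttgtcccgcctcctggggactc

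Among the 21 lysine methyltransferase genes, all tested, 3 fell and none rose in L-Myc (all genes lower: 8.03%), 4 fell and none rose in C-Myc (13.6%), and 5 fell and 1 rose in N-Myc (16.4% lower and 12.5% higher). The family median was 0.04, -0.12 and -0.05, close to the medians of all genes, and with centred arrays it was 0.19, 0.04 and 0.12, with 1, 0 and 4 rises and 3, 3 and 4 falls. Kmt2e, also called MLL5, reads H3 methylated at lysine 4 and has no established methyltransferase activity. Its value was 10.82, 10.99 and 11.29 in preSC 1 to 3, 10.16 and 9.94 in L-Myc 1 and 2, 9.64 and 9.85 in C-Myc 1 and 2 and 9.94 and 9.48 in N-Myc 1 and 2, and all 6 transduced arrays lay below the preSC arrays. It fell in L-Myc (-0.98, SE 0.20, adjusted p = 0.0228), C-Myc (-1.29, SE 0.20, adjusted p = 0.00709) and N-Myc (-1.32, SE 0.20, adjusted p = 0.00595). Of 4 other tested probe sets of Kmt2e, 3 also fell in every group, by 0.85 to 3.29, and the dimmest of these 4 was higher by 0.19 to 0.38 without passing. In L-Myc the brightest probe set passed in 1 of the 5 fits that left out an array, in C-Myc in all 5 and in N-Myc in 4, the exception being the fit without N-Myc 2 (-1.09, adjusted p = 0.0565).

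Kmt2c, or MLL3, places a single methyl group on lysine 4 of H3 at enhancers. It was at 10.41, 10.55 and 10.57 in preSC 1 to 3, 9.80 and 9.60 in L-Myc 1 and 2, 10.10 and 9.55 in C-Myc 1 and 2 and 9.84 and 9.87 in N-Myc 1 and 2. It fell in L-Myc (-0.81, SE 0.18, adjusted p = 0.0284), C-Myc (-0.68, SE 0.18, adjusted p = 0.0331) and N-Myc (-0.66, SE 0.18, adjusted p = 0.0328). All 3 other probe sets differed in the same direction in every group, by 0.20 to 1.57, and 2 of them passed in every group. The C-Myc fall passed in 1 of the 5 fits that left out an array and was -0.41 without C-Myc 2 (adjusted p = 0.0979), and the L-Myc and N-Myc falls did not pass when any 1 array of the comparison was left out. Its paralogue Kmt2d did not follow: 9.36, 9.47 and 9.36 in preSC 1 to 3, 9.08 and 8.59 in L-Myc 1 and 2, 9.80 and 8.74 in C-Myc 1 and 2 and 9.99 and 9.48 in N-Myc 1 and 2. Kmt2d was lower in both L-Myc arrays and in C-Myc 2 and higher in C-Myc 1 and both N-Myc arrays, with no call (-0.57, SE 0.32, adjusted p = 0.279 in L-Myc and 0.34 (SE 0.32, adjusted p = 0.456) in N-Myc).

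Setd5, a SET domain protein found with the NCoR corepressor and HDAC3, was at 10.05, 9.87 and 9.87 in preSC 1 to 3, 9.26 and 9.06 in L-Myc 1 and 2, 9.30 and 8.92 in C-Myc 1 and 2 and 9.32 and 9.16 in N-Myc 1 and 2. It fell in L-Myc (-0.77, SE 0.16, adjusted p = 0.0232), C-Myc (-0.82, SE 0.16, adjusted p = 0.0129) and N-Myc (-0.68, SE 0.16, adjusted p = 0.0196), with no overlap between preSC and transduced arrays. Its second probe set differed by -0.06, -0.04 and -0.22 and did not pass. In L-Myc and in N-Myc it passed in 1 of the 5 fits that left out an array, and in C-Myc in all 5. Setd2, which trimethylates lysine 36 of H3, fell in N-Myc (-0.94, SE 0.21, adjusted p = 0.0185) and not in L-Myc (0.16, SE 0.21, adjusted p = 0.673) or C-Myc (-0.50, SE 0.21, adjusted p = 0.130). Its values were 9.30, 9.43 and 9.20 in preSC 1 to 3, 9.54 and 9.39 in L-Myc 1 and 2, 8.46 and 9.15 in C-Myc 1 and 2 and 8.49 and 8.24 in N-Myc 1 and 2. The fall passed in 1 of 5 fits that left out an array (adjusted p up to 0.128). C-Myc 1 was again close to the N-Myc arrays, and C-Myc 2 lay between them and the L-Myc arrays.

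The 3 genes for methylation of H4 lysine 20 moved differently from each other. Kmt5b, which adds further methyl groups after Kmt5a, was at 9.14, 9.18 and 9.18 in preSC 1 to 3, 8.63 and 8.48 in L-Myc 1 and 2, 7.72 and 8.21 in C-Myc 1 and 2 and 8.05 and 7.80 in N-Myc 1 and 2. On this probe set it fell in C-Myc (-1.20, SE 0.17, adjusted p = 0.00542) and N-Myc (-1.24, SE 0.17, adjusted p = 0.00459) and differed in L-Myc by -0.61 (SE 0.17, adjusted p = 0.0594). The N-Myc fall did not pass without N-Myc 2 (-1.12, adjusted p = 0.0514). The 4 other probe sets of Kmt5b did not share one direction: the second differed by 0.33 in C-Myc, and another rose by 0.57 in C-Myc (adjusted p = 0.0426 over probe sets), so Kmt5b as a gene has no single direction here. Kmt5a, which adds the first methyl group and is needed for passage through the cell cycle, was at 10.87, 10.60 and 10.65 in preSC 1 to 3, 10.78 and 10.74 in L-Myc 1 and 2, 11.57 and 10.72 in C-Myc 1 and 2 and 11.60 and 11.47 in N-Myc 1 and 2. It rose in N-Myc (0.83, SE 0.24, adjusted p = 0.0389) and did not pass in C-Myc (0.44, SE 0.24, adjusted p = 0.223), where C-Myc 1 matched the N-Myc arrays and C-Myc 2 matched preSC. Its second probe set rose in C-Myc by 0.78 and in N-Myc by 1.16. The N-Myc rise on the brightest probe set did not pass when any 1 of the 5 arrays was left out (adjusted p up to 0.190). Kmt5c, the paralogue of Kmt5b, differed by 0.09, 0.02 and 0.27 without passing.

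Polycomb and H3 lysine 79 enzymes showed no call. Ezh2, the catalytic subunit of Polycomb repressive complex 2 and highly expressed in small cell lung cancer, was at 11.51, 11.55 and 11.09 in preSC 1 to 3, 11.72 and 11.30 in L-Myc 1 and 2, 11.38 and 11.23 in C-Myc 1 and 2 and 11.40 and 11.46 in N-Myc 1 and 2, and its differences were 0.12 (SE 0.19, adjusted p = 0.714), -0.08 (SE 0.19, adjusted p = 0.800) and 0.05 (SE 0.19, adjusted p = 0.877) in the order L-Myc, C-Myc, N-Myc. Ezh1, its counterpart in resting cells, was at 8.67, 8.63 and 9.44 in preSC 1 to 3, 7.49 and 8.29 in L-Myc 1 and 2, 7.51 and 8.70 in C-Myc 1 and 2 and 8.00 and 7.94 in N-Myc 1 and 2. Both L-Myc and both N-Myc arrays lay below preSC, C-Myc 2 did not, and no comparison passed (-1.02, SE 0.42, adjusted p = 0.148, -0.81 (SE 0.42, adjusted p = 0.197) and -0.94 (SE 0.42, adjusted p = 0.127)). Dot1l, the only lysine 79 methyltransferase known in mammals, differed by 0.01, 0.17 and 0.22. Kmt2a, or MLL1, was at 9.31, 9.63 and 9.76 in preSC 1 to 3, 9.85 and 9.49 in L-Myc 1 and 2, 9.32 and 9.40 in C-Myc 1 and 2 and 9.07 and 9.03 in N-Myc 1 and 2 and did not pass (-0.52, SE 0.18, adjusted p = 0.0650 in N-Myc). The remaining members, Kmt2b, Setd1a, Setd1b, Setd3, Setd4, Setd6, Setd7, Setdb1 and Setdb2, ran from -0.88 for Setd1b, an H3 lysine 4 methyltransferase gene, in C-Myc to 0.42 for Setd4 in N-Myc, and none passed on its brightest probe set.

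**Figure D3:**
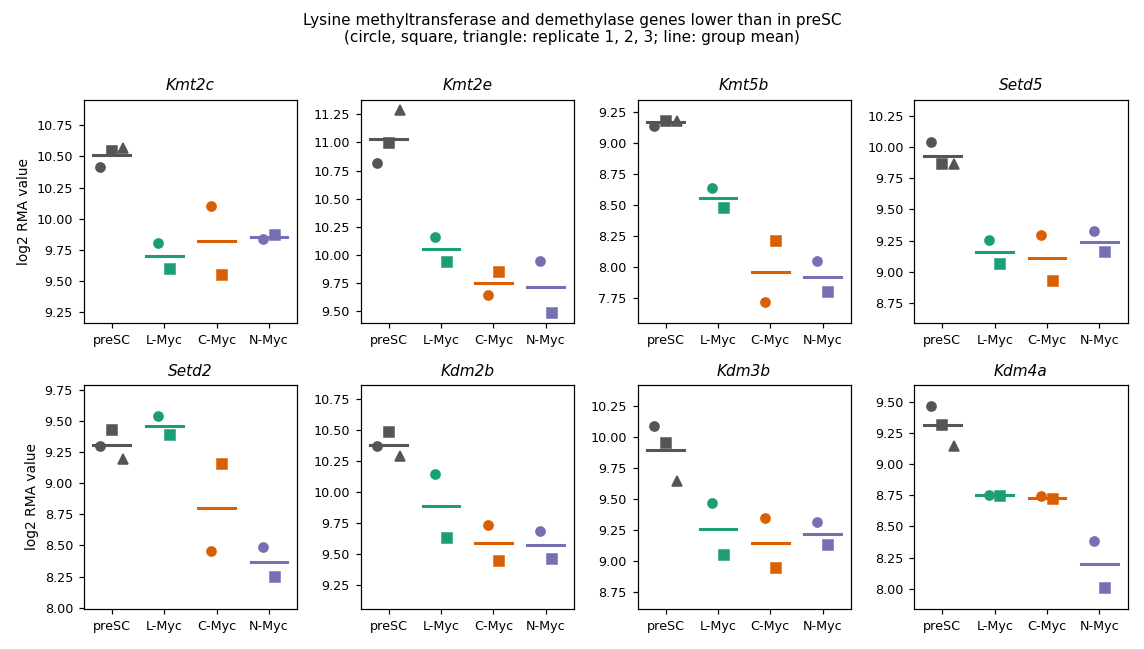
Deposited log2 value of 8 lysine methyltransferase and demethylase genes on each of the 9 arrays, by group, with symbols for the replicate number and a line at the group mean. For all but Setd2 the 6 transduced arrays lie below the 3 preSC arrays (19.1% of all genes tested do so). For Setd2 the L-Myc arrays lie within or above the preSC range.

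Among 14 lysine demethylase genes tested, none rose in any group, none fell in L-Myc, 3 fell in C-Myc and 4 in N-Myc (all genes lower: 8.03%, 13.6% and 16.4%). The family median was -0.14, -0.10 and -0.10, and with centred arrays 0.00, 0.07 and 0.07, with 1 rise in L-Myc, 1 in C-Myc and none in N-Myc and 0, 1 and 3 falls. Kdm4a, which demethylates lysines 9 and 36 of H3, was at 9.47, 9.31 and 9.15 in preSC 1 to 3, 8.76 and 8.75 in L-Myc 1 and 2, 8.74 and 8.72 in C-Myc 1 and 2 and 8.39 and 8.01 in N-Myc 1 and 2. It fell in C-Myc (-0.58, SE 0.16, adjusted p = 0.0374) and N-Myc (-1.12, SE 0.16, adjusted p = 0.00489) and differed in L-Myc by -0.56 (SE 0.16, adjusted p = 0.0585). The N-Myc fall passed whichever of the 5 arrays was left out, the only one of the 18 N-Myc calls to do so, and the C-Myc fall passed in 1 of 5 such fits. Its relative Kdm4c fell in N-Myc (-0.81, SE 0.20, adjusted p = 0.0221), with values of 8.46, 8.55 and 8.84 in preSC 1 to 3, 8.18 and 8.37 in L-Myc 1 and 2, 7.80 and 8.30 in C-Myc 1 and 2 and 7.71 and 7.90 in N-Myc 1 and 2, passing in 1 of 5 such fits (adjusted p up to 0.143), and Kdm4b differed by 0.11, 0.26 and 0.23.

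Kdm2b, which demethylates lysine 36 of H3 and brings a Polycomb complex to CpG islands, was at 10.37, 10.48 and 10.29 in preSC 1 to 3, 10.15 and 9.63 in L-Myc 1 and 2, 9.73 and 9.44 in C-Myc 1 and 2 and 9.68 and 9.47 in N-Myc 1 and 2. It fell in C-Myc (-0.79, SE 0.19, adjusted p = 0.0244) and N-Myc (-0.80, SE 0.19, adjusted p = 0.0202), and was -0.49 in L-Myc. These falls passed in 2 and in 1 of the 5 fits that left out an array. Its other probe set differed by -0.16 in C-Myc and -0.29 in N-Myc. Kdm3b, an H3 lysine 9 demethylase, was at 10.09, 9.95 and 9.65 in preSC 1 to 3, 9.47 and 9.05 in L-Myc 1 and 2, 9.35 and 8.95 in C-Myc 1 and 2 and 9.32 and 9.13 in N-Myc 1 and 2. It fell in C-Myc (-0.75, SE 0.21, adjusted p = 0.0395) and N-Myc (-0.67, SE 0.21, adjusted p = 0.0481), near the threshold, and passed in 1 of 5 fits that left out an array in each. The other Kdm3b probe set differed by -0.31 in C-Myc and -0.05 in N-Myc without passing. On their brightest probe sets, both Kdm2b and Kdm3b had every transduced array below every preSC array.

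Kdm1a, or LSD1, which demethylates lysine 4 of H3 with the CoREST complex and is a drug target in small cell lung cancer, was nearly level on its brightest probe set: 11.93, 12.00 and 11.83 in preSC 1 to 3, 12.07 and 11.98 in L-Myc 1 and 2, 11.96 and 11.91 in C-Myc 1 and 2 and 12.09 and 11.79 in N-Myc 1 and 2. Its differences there were 0.11 (SE 0.14, adjusted p = 0.646), 0.02 (SE 0.14, adjusted p = 0.939) and 0.02 (SE 0.14, adjusted p = 0.907), while its second probe set rose in all 3 groups by 0.73, 0.70 and 0.58. Kdm6b, an H3 lysine 27 demethylase, differed on its brightest probe set by -1.07 (SE 0.35, adjusted p = 0.0883) in L-Myc and did not pass, while its second probe set fell by 1.46, 1.05 and 0.94. Kdm5a, an H3 lysine 4 demethylase first found through its binding to Rb, differed by 0.52, 0.47 and 0.22 on its brightest probe set without passing, and 3 of its 4 other probe sets fell in L-Myc and N-Myc. Kdm1b, Kdm2a, Kdm3a, Kdm5b, Kdm7a and Kdm8 did not pass on their brightest probe sets, with differences from -0.44 for Kdm5b in L-Myc to 0.55 for Kdm7a in N-Myc. The dimmest tested Kdm7a probe set rose by 1.66, 2.23 and 2.37, and the second Kdm2a probe set fell by 0.84, 1.09 and 1.55.

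Of 11 zinc-dependent deacetylase genes, 1 rose in L-Myc, none changed in C-Myc, and 1 rose and 1 fell in N-Myc (all genes: 5.44%, 9.91% and 12.5% higher, 8.03%, 13.6% and 16.4% lower), with family medians of 0.13, 0.09 and -0.02. Hdac10, a cytosolic enzyme that removes acetyl groups from polyamines, was at 7.89, 7.59 and 7.79 in preSC 1 to 3, 8.59 and 8.36 in L-Myc 1 and 2, 8.52 and 8.10 in C-Myc 1 and 2 and 8.58 and 8.57 in N-Myc 1 and 2. It rose in L-Myc (0.72, SE 0.17, adjusted p = 0.0360) and N-Myc (0.82, SE 0.17, adjusted p = 0.0146), and in C-Myc its difference was 0.55 (SE 0.17, adjusted p = 0.0549), with C-Myc 2 the lowest of the transduced arrays and still above preSC. The L-Myc rise did not pass when any 1 array was left out, and the N-Myc rise passed in 2 of 5 such fits. Hdac5, a class IIa enzyme that shuttles between nucleus and cytoplasm, fell in N-Myc (-0.76, SE 0.20, adjusted p = 0.0271), from 9.88, 9.52 and 9.36 in preSC 1 to 3, 9.46 and 9.49 in L-Myc 1 and 2, 8.93 and 9.36 in C-Myc 1 and 2 and 8.89 and 8.76 in N-Myc 1 and 2. C-Myc 1 was again at the level of the N-Myc arrays, and the fall passed in 1 of 5 fits that left out an array. Hdac4, of the same class, was lower on all 6 transduced arrays and did not pass on its brightest probe set (-0.88, SE 0.27, adjusted p = 0.0553 in C-Myc). Its second probe set fell in every group by 0.99, 0.99 and 0.62.

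Hdac1 and Hdac2, the catalytic subunits of the NuRD, SIN3 and CoREST complexes, did not pass on their brightest probe sets. Hdac1 was at 10.90, 10.70 and 10.82 in preSC 1 to 3, 10.77 and 11.02 in L-Myc 1 and 2, 10.55 and 11.03 in C-Myc 1 and 2 and 10.49 and 10.51 in N-Myc 1 and 2, with differences of 0.09 (SE 0.17, adjusted p = 0.776), -0.02 (SE 0.17, adjusted p = 0.950) and -0.31 (SE 0.17, adjusted p = 0.214). Hdac2 was at 12.10, 12.26 and 12.13 in preSC 1 to 3, 12.39 and 12.40 in L-Myc 1 and 2, 12.28 and 12.33 in C-Myc 1 and 2 and 12.14 and 12.14 in N-Myc 1 and 2, with differences of 0.23 (SE 0.12, adjusted p = 0.230), 0.14 (SE 0.12, adjusted p = 0.412) and -0.02 (SE 0.12, adjusted p = 0.889). The 2 other Hdac2 probe sets moved in opposite directions: one differed by 0.67, 0.54 and 0.35, passing in L-Myc and C-Myc, and the other fell by 1.59, 1.46 and 1.74. Hdac3, the NCoR enzyme, differed by at most 0.11 in size, and Hdac6, Hdac7 and Hdac8 by 0.09 to 0.46. Hdac11, the single class IV enzyme, was at 8.59, 8.47 and 10.11 in preSC 1 to 3, 8.08 and 9.67 in L-Myc 1 and 2, 8.36 and 9.80 in C-Myc 1 and 2 and 8.59 and 8.67 in N-Myc 1 and 2. It was high in preSC 3, L-Myc 2 and C-Myc 2 and low on the other 6 arrays, so it followed none of the labels. Those were also the 3 arrays with high Dcn.

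Of 7 sirtuin genes 1 rose in each group, and it was Sirt6 in all 3 (all genes higher: 5.44%, 9.91% and 12.5%), with family medians of 0.07, 0.12 and 0.01. Sirt6 removes acetyl groups from lysines 9 and 56 of H3 and was at 7.39, 7.29 and 7.27 in preSC 1 to 3, 8.14 and 8.11 in L-Myc 1 and 2, 8.28 and 7.87 in C-Myc 1 and 2 and 8.43 and 7.97 in N-Myc 1 and 2. Its rise was 0.81 (SE 0.18, adjusted p = 0.0303) in L-Myc, 0.76 (SE 0.18, adjusted p = 0.0255) in C-Myc and 0.88 (SE 0.18, adjusted p = 0.0141) in N-Myc, and the arrays of the transduced groups did not overlap with preSC. In L-Myc it did not pass when any 1 array was left out, and in C-Myc it passed in 1 of 5 such fits, with 0.55 without C-Myc 1. In N-Myc it passed in 4 of 5, and without N-Myc 1 it was 0.65 (adjusted p = 0.109). Sirt1, a nuclear deacetylase, was at 9.44, 9.52 and 9.37 in preSC 1 to 3, 9.82 and 9.48 in L-Myc 1 and 2, 9.48 and 9.41 in C-Myc 1 and 2 and 9.39 and 9.52 in N-Myc 1 and 2, with differences of 0.21 (SE 0.14, adjusted p = 0.378), 0.00 (SE 0.14, adjusted p = 0.999) and 0.01 (SE 0.14, adjusted p = 0.955). The mitochondrial Sirt3, Sirt4 and Sirt5 and the remaining Sirt2 and Sirt7 did not pass on their brightest probe sets, with differences from -0.47 for Sirt3 and Sirt5 in L-Myc to 0.54 for Sirt5 in N-Myc. The second Sirt5 probe set rose in N-Myc by 0.77.

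**Figure D4:**
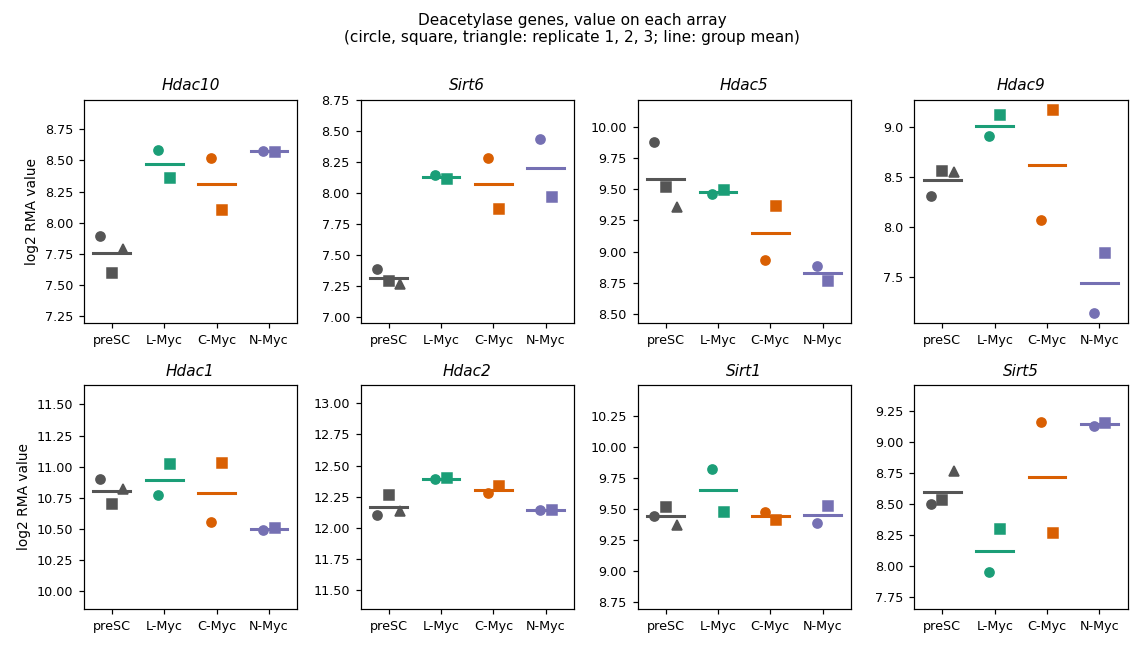
Deposited log2 value of 8 deacetylase genes on each of the 9 arrays, by group, with symbols for the replicate number and a line at the group mean. Hdac10 and Sirt6 lie higher on all 6 transduced arrays than in preSC (15% of all genes tested do so). Hdac2 spans 12.10 to 12.40 over all 9 arrays, the transduced groups overlap preSC in Sirt1, and Hdac9 is lowest in the N-Myc arrays.

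The transduced groups were also compared with each other, with differences that do not use the preSC values and an SE from the fit over all 4 groups, which does. No enzyme gene passed with limma in L-Myc against C-Myc, L-Myc against N-Myc or C-Myc against N-Myc, and neither did any of the 12976 genes (0%). At an unadjusted p under 0.05 these comparisons held 2, 14 and 2 of the 60 genes (3.33%, 23.3% and 3.33%), beside 4.64%, 18.7% and 4.17% of all genes. With only the 2 groups compared in the fit, 0 of the 60 enzyme genes passed in each comparison. In L-Myc against N-Myc, 241 of the 12976 genes passed, a share so small that the 0 does not set the enzyme genes apart. Hdac9, a class IIa deacetylase gene, was at 8.31, 8.56 and 8.55 in preSC 1 to 3, 8.91 and 9.12 in L-Myc 1 and 2, 8.07 and 9.18 in C-Myc 1 and 2 and 7.14 and 7.75 in N-Myc 1 and 2, higher in L-Myc than in N-Myc by 1.58 (SE 0.36, adjusted p = 0.165) and in C-Myc than in N-Myc by 1.18 (SE 0.36, adjusted p = 0.936). Setd2 was higher in L-Myc by 1.10 (SE 0.23, adjusted p = 0.165). Sirt5, a mitochondrial enzyme that removes succinyl groups, was at 8.50, 8.53 and 8.76 in preSC 1 to 3, 7.95 and 8.30 in L-Myc 1 and 2, 9.16 and 8.27 in C-Myc 1 and 2 and 9.13 and 9.15 in N-Myc 1 and 2, lower in L-Myc (-1.01, SE 0.29, adjusted p = 0.171), and so were Kmt2d (-0.90, SE 0.35, adjusted p = 0.232), Prmt5 (-0.82, SE 0.29, adjusted p = 0.206) and Prmt2 (-0.80, SE 0.20, adjusted p = 0.165). These 6 genes had the largest L-Myc against N-Myc differences of the 60, a choice that favours arrays without overlap, and their L-Myc and N-Myc arrays did not overlap. The share of all genes without such overlap was not counted, so this is only a description of their values.

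The C-Myc arrays lay far apart in several of these genes. They differed at least 2-fold at Ezh1, Hdac9, Hdac11 and Kmt2d (6.67% of the 60 genes, beside 10.9% of all genes). None of the 60 genes differed 2-fold between C-Myc 2 and L-Myc 2, or between C-Myc 1 and either N-Myc array. Without C-Myc 2, L-Myc against C-Myc called Kmt5b (0.84, adjusted p = 0.0468), Setd2 (1.01, adjusted p = 0.0371) and Sirt5 (-1.04, adjusted p = 0.0447) among 625 genes (4.82%). Without C-Myc 1, C-Myc against N-Myc called Hdac9 (1.74, adjusted p = 0.0330) among 419 genes (3.23%). The direction of these comparisons and the labelled molecule, polyA or total RNA, cannot be told apart for L-Myc against C-Myc and N-Myc. The same holds for C-Myc and N-Myc against preSC, which is labelled polyA like L-Myc.

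**Figure D5:**
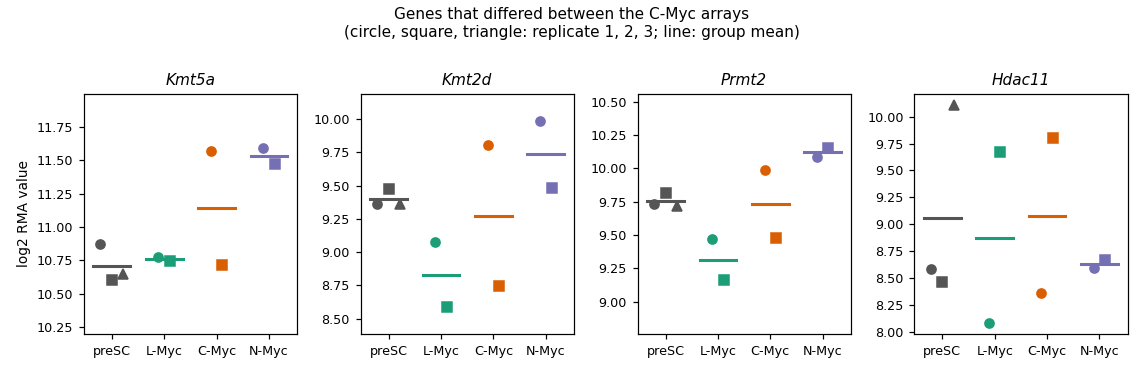
Deposited log2 value of Kmt5a, Kmt2d, Prmt2 and Hdac11 on each of the 9 arrays, by group, with symbols for the replicate number and a line at the group mean. In Kmt5a, Kmt2d and Prmt2 C-Myc 1 (circle) lies with the N-Myc arrays, and in Hdac11 C-Myc 2 (square) lies with L-Myc 2 and preSC 3.

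Several enzyme genes gave different answers on different probe sets. Of the 62 genes, 37 had more than 1 probe set and 34 had more than 1 that was bright enough to test. Adjusted over the 24244 probe sets tested, 39, 41 and 45 of 119 probe sets of these genes were called in the order L-Myc, C-Myc, N-Myc (32.8%, 34.5% and 37.8%), beside 22.1%, 30.0% and 34.8% of all probe sets. Of the 34 genes, 16 in L-Myc and 14 each in C-Myc and N-Myc had a called probe set here but no call in the fit over genes. These counts include genes whose brightest probe set passed only in the fit over probe sets, such as Prmt3 in L-Myc. They are therefore not all disagreements between probe sets. The brightest Hdac9 probe set also passed only there in N-Myc (-1.04), while its other tested probe set differed by 0.39 without passing. That other Hdac9 probe set rose in L-Myc (1.34) and C-Myc (1.08). Setdb1, an H3 lysine 9 methyltransferase gene, is a case in which only another probe set was called. Its brightest probe set differed by 0.35, 0.23 and 0.33, its second rose by 1.32, 1.18 and 1.23, and its dimmest differed by -0.22 to 0.00. Prmt9 is another, with a second probe set that rose by 2.11, 1.80 and 1.88. Probe sets of one gene were called in both directions for Hdac2, Hdac4 and Kmt5b in L-Myc, for Hdac2 and Kmt5b in C-Myc and for none in N-Myc. The position of the probe sets on their transcripts was not analysed here, and the preSC arrays differed from the others in the 5' minus 3' control values above. The part of transcript position in these disagreements was not tested.

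Genes for partners of the enzymes came from 8 lists, and 118 of their 143 symbols were tested. In L-Myc 13 rose and 10 fell, in C-Myc 22 rose and 14 fell, and in N-Myc 24 rose and 14 fell (all genes called: 13.5%, 23.5% and 28.8%). With centred arrays these splits were 21 and 9, 33 and 9, and 40 and 10, and the calls of all genes also turned to mostly higher. Among 12 cofactor genes of arginine methyltransferases and deacetylases, 3 rose in L-Myc, 5 in C-Myc and 5 in N-Myc, and none fell (all genes higher: 5.44%, 9.91% and 12.5%), with medians of 0.13, 0.39 and 0.40. Wdr77, which encodes MEP50, the obligate partner of Prmt5, was at 8.76, 8.88 and 8.99 in preSC 1 to 3, 9.56 and 9.98 in L-Myc 1 and 2, 10.73 and 10.08 in C-Myc 1 and 2 and 10.68 and 10.69 in N-Myc 1 and 2. It rose in L-Myc (0.89, SE 0.22, adjusted p = 0.0385), C-Myc (1.53, SE 0.22, adjusted p = 0.00531) and N-Myc (1.81, SE 0.22, adjusted p = 0.00342), and its C-Myc arrays split in the same way as those of Prmt5. Ahcy, which clears the S-adenosylhomocysteine that methyltransferases produce, rose in L-Myc (0.97, SE 0.14, adjusted p = 0.00883), C-Myc (1.17, SE 0.14, adjusted p = 0.00367) and N-Myc (1.32, SE 0.14, adjusted p = 0.00253). Ruvbl2, an ATPase of chromatin remodelling complexes, rose by 1.16, 1.56 and 1.67.

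Of 15 histone acetyltransferase and coactivator genes, none rose, and 3 fell in L-Myc, 4 in C-Myc and 5 in N-Myc (all genes lower: 8.03%, 13.6% and 16.4%), with medians of -0.05, -0.25 and -0.33. With centred arrays the medians were 0.09, -0.08 and -0.16, and 0, 2 and 4 rose and 3, 3 and 4 fell. On the second-brightest probe set, tested for 11 of these genes, 2, 3 and 3 rose and 0, 3 and 2 fell, so the direction depended on the probe set. Crebbp, which encodes the acetyltransferase CBP, was at 10.98, 10.93 and 10.85 in preSC 1 to 3, 9.72 and 9.23 in L-Myc 1 and 2, 9.47 and 9.35 in C-Myc 1 and 2 and 9.76 and 9.44 in N-Myc 1 and 2. It fell in L-Myc (-1.45, SE 0.18, adjusted p = 0.00610), C-Myc (-1.51, SE 0.18, adjusted p = 0.00346) and N-Myc (-1.32, SE 0.18, adjusted p = 0.00433), with more than 1 log2 unit between the lowest preSC array and the highest transduced array. The nuclear receptor coactivator gene Ncoa3 fell by 1.21, 1.27 and 1.47. Of 9 Polycomb complex 2 partner genes, 2 fell in L-Myc, 1 in C-Myc and 2 in N-Myc and none rose (all genes lower as above, higher 5.44%, 9.91% and 12.5%). On the second-brightest probe set, tested for 7 of them, 2, 1 and 1 rose and none fell. Aebp2, an accessory subunit, fell in all 3 groups by 0.84, 0.83 and 0.74, whereas the core subunit genes Eed and Suz12 differed by -0.46 to 0.12 and did not pass. Of 16 Polycomb complex 1 genes, 3, 5 and 3 rose and 2, 2 and 3 fell in the order L-Myc, C-Myc, N-Myc (all genes: 5.44%, 9.91% and 12.5% higher, 8.03%, 13.6% and 16.4% lower). Pcgf1, the subunit that pairs with Kdm2b, rose by 1.49, 1.50 and 1.37.

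Of 28 deacetylase complex genes, 5, 5 and 7 rose and 2, 4 and 2 fell. Beside this and the next 3 lists, 5.44%, 9.91% and 12.5% of all genes rose and 8.03%, 13.6% and 16.4% fell. The NuRD subunit gene Mta2 rose in L-Myc (1.31) and C-Myc (1.02), Gatad2a rose in C-Myc (1.38) and N-Myc (1.72), and Mbd2, which ties NuRD to methylated DNA, fell by 0.94, 0.87 and 0.86. Of 13 genes for subunits of H3 lysine 4 methyltransferase complexes, 1, 3 and 3 rose and 0, 1 and 1 fell, with Cxxc1 up by 0.69, 0.73 and 0.77 and Ash2l up in C-Myc (0.88) and N-Myc (1.19). Of 16 further methyltransferase genes, 1, 4 and 6 rose and 1 fell in each group. Suv39h2, an H3 lysine 9 methyltransferase gene, rose by 1.00, 1.12 and 0.62, Smyd5 rose in C-Myc (1.58) and N-Myc (1.96), and Carm1, the arginine methyltransferase also called PRMT4, rose in N-Myc (1.04, SE 0.30, adjusted p = 0.0366) and differed in C-Myc by 0.92 (SE 0.30, adjusted p = 0.0616). Of 9 further demethylase genes, only Phf2 changed, with a fall in C-Myc (-1.04).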

How the data were processed

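RNA of 9 cultured cell samples was measured on Affymetrix mouse genome arrays. The deposited values are log2 signals per probe set, made by the authors with RMA (affy package, version not given in the sources used here, R 3.0.1) per the submitters' processing notes. RMA quantile-normalizes the arrays, so a shift shared by most genes is not visible. Scanner files were not used here.

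Probe sets were named from the platform annotation. The 34945 with a single symbol covered 18193 genes, and the brightest one stood for a gene. The 12976 genes above the 40th percentile of an array on at least 2 of the 9 arrays were tested with limma 3.58.1 in R 4.3.3 (lmFit and eBayes, two-sided, 1 model over the 4 groups, 5 residual degrees of freedom), with Benjamini-Hochberg adjustment over all genes tested and a threshold of 0.05. The same fit over 24244 probe sets gave the values of other probe sets. The code was tested on simulated data. The number of arrays limits the precision.

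The enzyme genes, partner lists and markers were chosen with earlier results of these data known. Values on every array are given for genes that passed and changed at least 2-fold in a comparison, for a few well-known enzymes whatever their values, and for some others chosen after their values were seen (among them Prmt2, Prmt3, Kmt2c, Kmt2d, Setd2, Setd5, Kdm2b, Kdm3b, Ezh1, Hdac9 and Hdac11). From each partner list up to 3 of the largest changes were named. Promoters came from RefSeq (GRCm38.p6). Alternatives were the filter, the probe set, the scaling, the variance model, the replicate block, the groups in the fit, averaging closely matching arrays and leaving out each array.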

Additional observations from a re-analysis of the deposited data

How the results depend on the processing

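Of the calls among the 60 enzyme genes, 0 of 6 in L-Myc, 5 of 13 in C-Myc (Kmt2e, Kmt5b, Prmt1, Prmt5 and Setd5) and 1 of 18 in N-Myc (Kdm4a) passed whichever array of the comparison was left out, and none passed under all other settings. With 1 array left out, the enzyme genes called ran from 0 to 2 in L-Myc (6 with all arrays), from 6 to 13 in C-Myc (13) and from 3 to 13 in N-Myc (18), and the partner genes called from 8 to 15 (23), from 16 to 41 (36) and from 7 to 29 (38). A group left with 1 array is assumed to vary like the others. In L-Myc against C-Myc 0 to 3 enzyme and 0 to 6 partner genes were called, the most without C-Myc 2, in C-Myc against N-Myc 0 to 1 and 0 to 3, the most without C-Myc 1, and in L-Myc against N-Myc 0 throughout. With preSC 1 and 2 averaged and N-Myc 1 and 2 averaged (7 arrays, 3 residual degrees of freedom), 0 enzyme and 0 partner genes passed with limma in any comparison with preSC. In L-Myc, 11 of the 60 enzyme genes passed with centred arrays. On the second-brightest probe set 13 passed, of the 34 genes with more than 1 probe set bright enough to test. That count is on fewer genes than the main one, and the share of all genes in that setting is not given here. In C-Myc, 23 partner genes passed with only the 2 groups compared in the fit. For all genes, centring turned the split of higher and lower calls from 706 and 1042 to 1144 and 702 in L-Myc, from 1286 and 1763 to 2064 and 1192 in C-Myc and from 1617 and 2124 to 2662 and 1518 in N-Myc. The C-Myc value of Kmt5b turned to 0.33 on its second-brightest probe set (adjusted p = 0.335 with limma). The cause of these changes was not tested, beyond the fewer arrays in the fits that leave out or average them.

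Whether the replicate numbers of the titles pair the arrays is not stated. The deviations of replicate 1 from its group mean correlated across genes by 0.44 between L-Myc and C-Myc and by 0.14 for both other pairs of transduced groups. PreSC 1 and L-Myc 1 gave 0.65, and preSC 2 and L-Myc 2 gave -0.68. In a group of 2 arrays the deviations mirror each other, and preSC 1 and 2 were nearly alike. The values with preSC are therefore tied to each other, and these correlations cannot decide the pairing. With the replicate block, 2, 11 and 17 enzyme genes and 14, 28 and 32 partner genes were called in the order L-Myc, C-Myc, N-Myc. With it the L-Myc values of Prmt1, Sirt6, Hdac10, Kmt2c and Kmt2e did not pass with limma (adjusted p from 0.0511 to 0.0720), nor did Kmt2c or Prmt3 in C-Myc and N-Myc or Kmt5a in N-Myc (adjusted p from 0.0575 to 0.0809).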
